A study of Mus musculus with 8 samples.

Results

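The histone genes of the mouse fetal liver were taken as all probe sets of the array with a single gene symbol that begins with Hist1h to Hist4h, H1f, H2a, H2b, H3 or H4, a pattern that leaves out the H2 genes of the major histocompatibility complex. It found 36 probe sets of 25 genes among the 45101 probe sets of the array, of which 34945 have 1 symbol and name 18193 genes. The RNA came from fetal livers at embryonic day E14.5, of 4 wild-type (WT) embryos and 4 embryos of the genotype Eklf-/- (KO), with 1 array per embryo. Eklf, now Klf1, encodes erythroid Krüppel-like factor (EKLF), a zinc finger transcription factor of the red cell lineage. Both groups were untreated and the livers were used without culture. The KO lines had a B6 background, carried the knockout on both alleles, and were made with a BAC construct holding an engineered Eklf locus and with E2A-Cre mice.

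Histones are the proteins that DNA is wound around. Pairs of H2A, H2B, H3 and H4 form the core of the nucleosome, and the linker histone H1 binds the DNA between cores. Most core and linker histones come from clustered, intronless genes that are expressed in S phase with DNA replication, and their mRNAs end in a stem-loop in place of a poly-A tail. The replacement variants, such as H2A.Z and H3.3, come from polyadenylated mRNAs and are made throughout the cell cycle, and H2A.X mRNA occurs in both forms. The fetal liver is the site of definitive erythropoiesis at this age, where erythroblasts divide, condense their chromatin and then expel the nucleus.

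By class, the 25 genes were 8 replication-coupled core genes, 5 polyadenylated core variants, 6 linker genes, H2ax and 5 core variants of germ cells. A probe set was tested when the mean of WT or of KO exceeded a signal of 100, which left 25 probe sets of 16 genes. The other 11 probe sets had signals between 0.311 and 94.3 in single arrays, and the highest group mean among them was 74.6. They were the probe sets of H1f6, H1f7, H1f8, H2al2a, H2al3, H2ap, H2bc18, H2bfm and H2bl1, mostly genes of germ cells, so that all 5 germ cell variants stayed below the limit. Of the tested probe sets 6 passed through 1 group alone (3 through KO and 3 through WT), and 4 of these were called. Values are log2 MAS5.0 signals, differences are KO minus WT, and a probe set is called at a limma adjusted p under 0.05 over all 23379 tested probe sets. Differences are taken between arrays for 1 probe set, and signals of different probe sets do not rank their transcripts.

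Klf1 itself read 14.04, 13.87, 13.98 and 13.90 in WT and 10.81, 10.56, 10.65 and 10.59 in KO, a 9.81-fold lower signal (log2 difference -3.29, SE 0.099, adjusted p = 5.9e-07). The sources used here do not place its probes relative to the deleted part. WT arrays correlated at 0.974 to 0.978 with each other, and KO arrays at 0.956 to 0.978, where replicates 2 and 4 formed a pair at 0.978 and replicates 3 and 5 another at 0.977. All WT titles carry the same code and all KO titles a different one, so preparation and genotype cannot be told apart. The control probe sets for 18S ribosomal RNA, which has no poly-A tail, had a log2 signal of 11.90 ± 0.093 in the WT livers and of 8.0 ± 0.35 in those of KO (SD over 4 arrays per genotype, two-sided p = 0.029 by the exact permutation test). The 3-prime less 5-prime log2 signal for Actb went from 0.85 ± 0.080 to 0.55 ± 0.062 and for Tfrc from 1.79 ± 0.092 to 2.21 ± 0.35, WT first (SD over 4 arrays per genotype, p = 0.029 for either by the exact permutation test). How the RNA was primed for labelling is not given, and the part of these measures in the histone values was not tested.

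To show the upstream regions of members that the results turn on, the 250 bases before the start are printed for the linker gene H1f2, the variant H2az1, the H2B gene H2bc22 and the variant H3f3a (RefSeq, GRCm38.p6). Capitals mark the letters CCAAT on either strand, the core of the box read by the factor NF-Y.
H1f2, chr13:23738557-23738806, plus strand: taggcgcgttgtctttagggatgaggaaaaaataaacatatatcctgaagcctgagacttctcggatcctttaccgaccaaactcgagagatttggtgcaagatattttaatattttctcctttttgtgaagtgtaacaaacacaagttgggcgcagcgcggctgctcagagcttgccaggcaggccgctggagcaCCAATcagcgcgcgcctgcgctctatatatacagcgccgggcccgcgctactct
H2az1, chr3:137864237-137864486, plus strand: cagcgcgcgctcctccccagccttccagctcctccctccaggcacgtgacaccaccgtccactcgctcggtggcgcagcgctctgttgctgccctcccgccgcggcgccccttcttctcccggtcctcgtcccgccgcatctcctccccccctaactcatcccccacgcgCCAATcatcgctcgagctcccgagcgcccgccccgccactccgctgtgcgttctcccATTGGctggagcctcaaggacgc
H2bc22, chr13:21787238-21787487, plus strand: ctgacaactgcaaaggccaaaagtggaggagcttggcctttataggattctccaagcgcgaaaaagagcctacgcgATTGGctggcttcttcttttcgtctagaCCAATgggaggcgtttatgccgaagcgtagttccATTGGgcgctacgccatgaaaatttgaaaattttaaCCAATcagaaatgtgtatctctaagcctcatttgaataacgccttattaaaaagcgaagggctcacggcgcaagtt
H3f3a, chr1:180813606-180813855, minus strand: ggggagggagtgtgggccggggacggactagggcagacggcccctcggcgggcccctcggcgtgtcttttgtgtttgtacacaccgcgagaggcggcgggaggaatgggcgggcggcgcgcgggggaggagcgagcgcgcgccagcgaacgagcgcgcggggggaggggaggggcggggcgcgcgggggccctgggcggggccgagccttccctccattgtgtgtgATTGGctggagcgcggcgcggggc
The H2bc22 window holds 4 such boxes, at positions -174, -146, -112 and -76 from the start, H2az1 holds 2 (-80 and -23), and H1f2 and H3f3a hold 1 each (-54 and -24). An entry was found for 22 of the 25 genes. CCAAT occurred on either strand in 18 of these 22 windows, in all 6 of the replication-coupled core genes, all 5 of the polyadenylated variants and 4 of the 6 linker genes, against 33.9% of all 32841 windows of this length. The histone octamer ATTTGCAT was in 3 of the 22 (1.6% of all), TATAAA in 6 (12.4% of all) and the E2F letters TTTCGCGC in 1 (0.256% of all). CCNCNCCC, letters of the site that EKLF reads, was in 8 of the 22 (45.9% of all), among them H2az1 at -108 and H3f3a with 6 matches, some of them overlapping. CACCC, which can overlap it, was in 6 of the 22 (52.0% of all). These are matches of letters in a window, and no binding was measured in these data.

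Histone signals were more often lower than higher in the KO fetal liver. On the deposited scale 14 of the 25 tested probe sets were called lower (56.0%) and 3 were called higher (12.0%), against 17.7% called lower and 34.4% called higher over all 23379 probe sets (52.2% called in either direction), although scaled to the hybridisation controls the count was 1 lower and 11 higher of 24, beside 2.02% and 81.7% over all probe sets. The KO arrays all lay below the WT arrays in 13 of the 25 (17.4% over all probe sets) and above them in 3 (32.4% over all). The median difference of the 25 was -0.45, beside 0.17 over all tested probe sets. By gene, on the probe set with the highest mean signal, 7 of 16 were called lower and 3 higher, against 21.0% lower and 25.6% higher over 11292 genes (46.6% in either direction), with a median of -0.35 beside 0.06. Without overlap between the genotypes, KO lay below WT in 7 genes (20.9% over all genes) and above in 3 (24.4% over all genes). With no limit on the signal, 11 of all 36 probe sets were called lower and 3 higher, beside 7.35% and 15.1% of all probe sets. Between the genotypes the arrays also differed by brightness. The median signal of an array was 79.47 to 84.06 (WT) and 96.73 to 114.0 (KO). The brightest probe set of an array read 54910 to 60410 (WT) and 32640 to 39190 (KO). Histone probe sets called higher had WT mean signals of 58.9 to 134, and those called lower 135 to 20000. Shares among probe sets of like signal were not taken, so the part of brightness in these counts was not tested. Preparations of whole liver cannot tell fewer cells of a type from less RNA per cell.

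**Figure D1:**
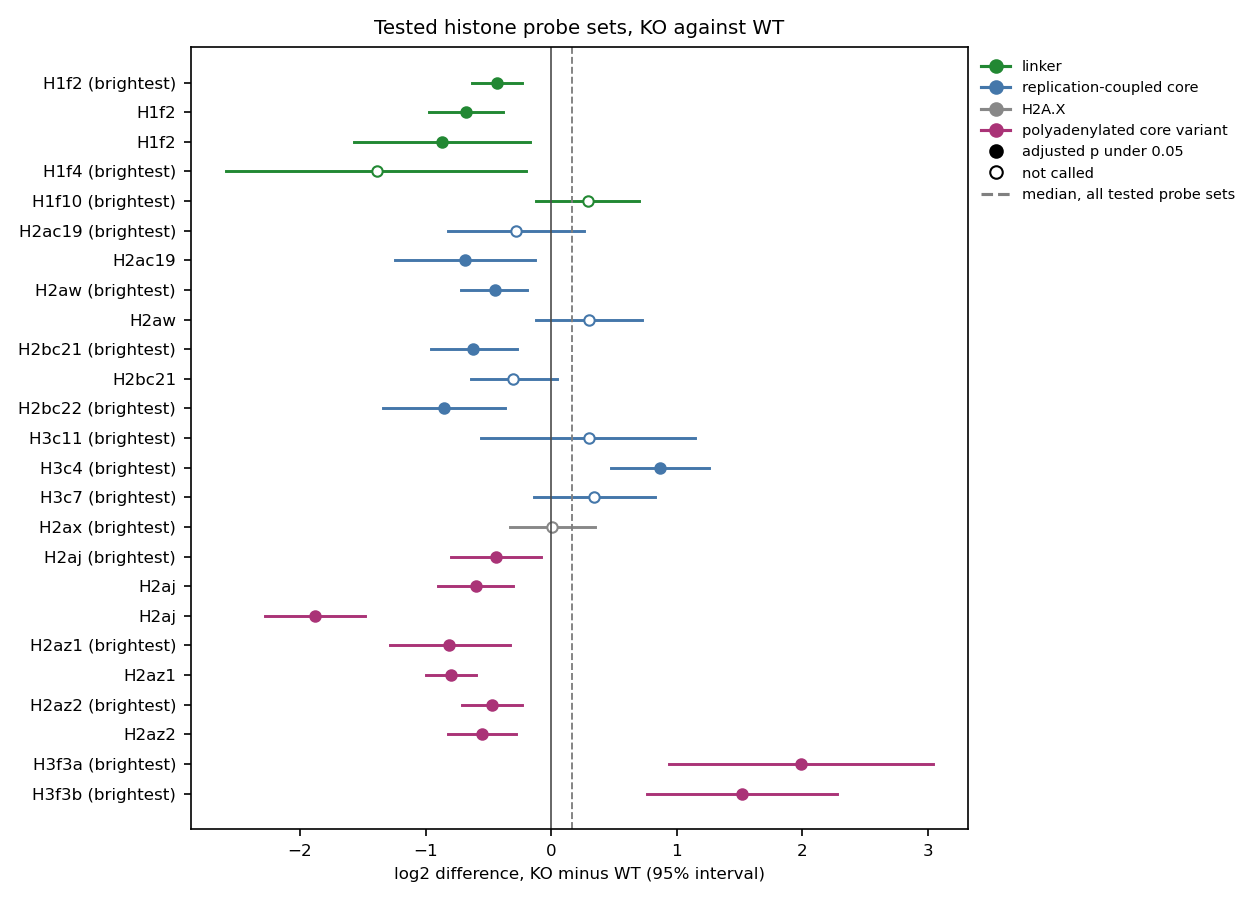
Log2 difference in signal, KO minus WT, for the 25 tested histone probe sets, with the 95% interval from limma and n = 4 arrays per genotype. Filled points have an adjusted p under 0.05, the dashed line is the median of all tested probe sets (0.17), and 14 filled points lie left of 0 and 3 right of it on the deposited scale (1 and 11 when scaled to the hybridisation controls, where all tested probe sets have a median of 1.01).

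Among the linker histones, H1f2 was lower in KO and the other tested genes were not called. H1f2 encodes H1.2, a somatic linker histone of dividing cells. On its brightest probe set H1f2 read 13.10, 13.07, 13.12 and 12.97 in WT and 12.65, 12.57, 12.69 and 12.63 in KO, with no overlap and with means of 13.06 ± 0.067 and 12.64 ± 0.049 (SD, n = 4 each). That is 1.35-fold lower (log2 difference -0.43, SE 0.089, adjusted p = 0.004). This call is lost after quantile normalization (-0.16, adjusted p = 0.16) and with the poly-A controls (-0.37, adjusted p = 0.06). It is turned when the arrays are scaled to the hybridisation controls (0.38, adjusted p = 0.024). Both further H1f2 probe sets were called lower too. One read 12.28, 12.43, 12.24 and 12.46 in WT and 11.53, 11.91, 11.46 and 11.81 in KO, a difference of -0.68 (adjusted p = 0.0028), where KO replicates 2 and 4 were the lower pair. The other had a KO mean below a signal of 100 and overlapping groups (-0.87, adjusted p = 0.042). Its call was lost with the poly-A controls (adjusted p = 0.089).

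H1f4, the gene of H1.4, read 7.20, 7.21, 6.86 and 6.86 in WT and 3.82, 6.63, 6.06 and 6.05 in KO. All KO arrays lay below WT and below a signal of 100, so that H1f4 passed the limit through WT alone, and KO replicate 2 lay far below the rest. The difference of -1.39 (SE 0.53) missed the threshold (adjusted p = 0.052), and it passed without KO replicate 2 (-0.79, adjusted p = 0.0096) or KO replicate 3 (-1.72, adjusted p = 0.029). H1f4 was also called lower after quantile normalization (adjusted p = 0.017), at the 75th percentile (adjusted p = 0.023) and with the poly-A controls (adjusted p = 0.041). It was not called with no filter (adjusted p = 0.13) or with the methods' t-test after Benjamini-Hochberg adjustment (adjusted p = 0.17). With the hybridisation controls or a filter at 200 it was not tested. H1f10, the gene of H1.10, a polyadenylated linker histone made outside S phase, read 7.59, 7.92, 7.60 and 8.33 in WT and 8.07, 8.26, 7.95 and 8.31 in KO. Its groups overlapped and it was not called (0.29, 95% interval -0.12 to 0.70, adjusted p = 0.21). Without WT replicate 4 H1f10 was called higher (0.44, adjusted p = 0.039).

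Among the polyadenylated core variants, all 7 probe sets of the H2A variants were called lower on the deposited scale (with the hybridisation controls 1 stayed lower and 1 was higher). The probe sets of H3f3a and H3f3b were called higher, while those listed for both genes and others were called lower, so no direction is given for H3.3 as a whole. H2az1 encodes H2A.Z.1, the H2A variant found beside transcription start sites. H2az1 read 14.37, 14.18, 14.35 and 14.25 in WT and 13.75, 13.03, 13.98 and 13.16 in KO on its brightest probe set, with means of 14.29 ± 0.090 and 13.48 ± 0.46 (SD, n = 4 each). The KO arrays all lay below WT but spread widely, with replicates 2 and 4 above replicates 3 and 5. This was 1.75-fold lower (-0.81, SE 0.21, adjusted p = 0.011). The call was lost after quantile normalization (-0.41, adjusted p = 0.13) and with the methods' t-test after Benjamini-Hochberg adjustment (adjusted p = 0.076). The second H2az1 probe set, marked on the array for possible cross-hybridisation, read 13.89, 13.94, 13.96 and 13.98 in WT and 13.25, 13.09, 13.16 and 13.08 in KO, a tight difference of nearly the same size (-0.80, SE 0.090, adjusted p = 0.00016), and both were at 0.00 and 0.01 when scaled to the hybridisation controls.

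H2az2 encodes H2A.Z.2, a close paralog of H2A.Z.1. It read 12.22, 12.02, 12.05 and 11.99 in WT and 11.45, 11.75, 11.57 and 11.65 in KO, 1.38-fold lower without overlap (-0.47, 95% interval -0.71 to -0.23, adjusted p = 0.006). Its second probe set differed by -0.55 (adjusted p = 0.0047). With the hybridisation controls the sign of both turned (0.34 and 0.26).

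H2aj, the gene of the H2A variant H2A.J, was called lower on all 3 of its probe sets on the deposited scale (on 1 with the hybridisation controls). One of them read 8.0, 7.50, 7.66 and 7.70 in WT and 5.39, 6.07, 6.03 and 5.83 in KO, so that every KO array was below a signal of 100 while every WT array was above it, and the limit was passed through WT alone. The fall was at least 2.10-fold (-1.88, SE 0.18, adjusted p = 6.2e-05). Among the single-symbol histone probe sets, only this one stayed called lower when scaled to the hybridisation controls (-1.07, adjusted p = 0.00059). The brightest H2aj probe set read 12.08, 11.54, 11.96 and 11.46 in WT and 11.27, 11.28, 11.50 and 11.22 in KO. There the groups overlapped in 1 WT and 1 KO array (-0.44, adjusted p = 0.043), and the call was lost without any 1 of WT replicates 1 and 3 or KO replicates 2, 3 and 5 (adjusted p = 0.082 to 0.11). It was lost too after quantile normalization (adjusted p = 0.11), with the poly-A controls (adjusted p = 0.11), with no filter (adjusted p = 0.12) and with the methods' t-test (unadjusted p = 0.054). The remaining probe set fell by 0.60 on the log2 scale (adjusted p = 0.0056), so the size of the H2aj difference depends on the probe set.

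**Figure D2:**
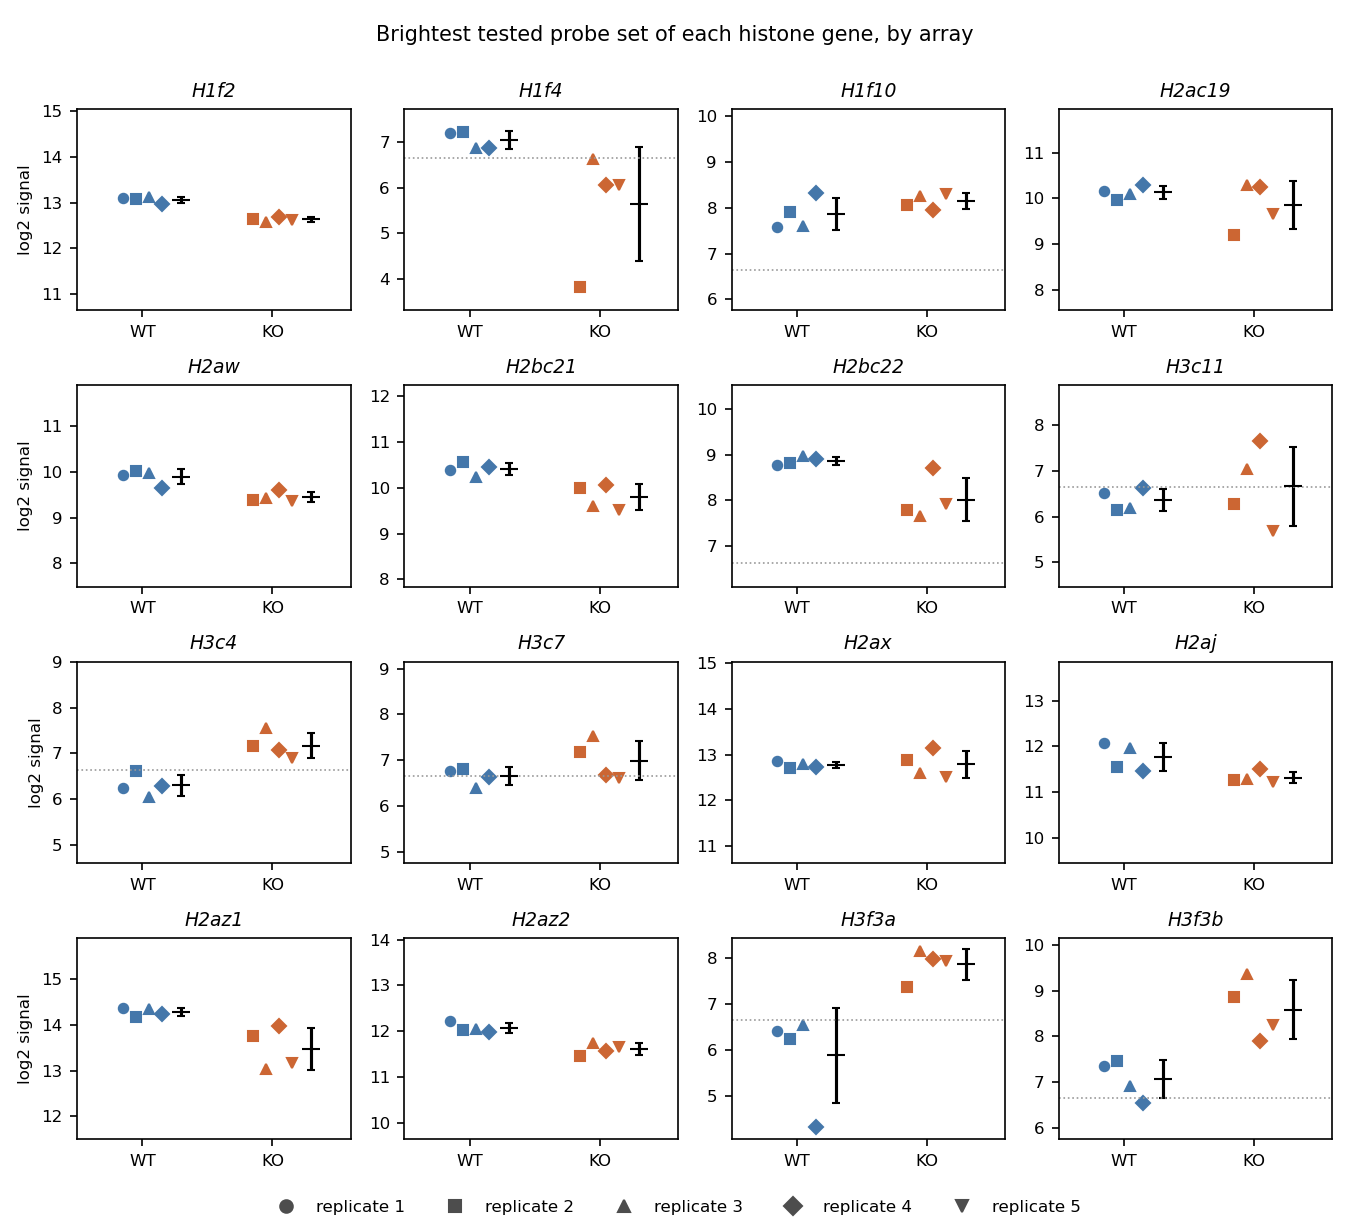
Log2 signal of the brightest tested probe set of each of the 16 histone genes in the WT and KO arrays, each symbol 1 embryo, with the mean and SD beside the points (n = 4) and a dotted line at a signal of 100. Panels span the same range of log2 units around different levels, and the arrays of both genotypes stand apart without overlap in 10 genes (7 with KO below and 3 with KO above).

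H3f3a and H3f3b encode the same protein, H3.3, the H3 variant placed in active genes and at telomeres. H3f3b read 7.35, 7.47, 6.92 and 6.54 in WT and 8.86, 9.36, 7.89 and 8.24 in KO, 2.87-fold higher without overlap (1.52, SE 0.33, adjusted p = 0.0051). Its WT signals were near the limit, at 93.23 to 177.5, with WT replicate 4 below 100. H3f3a read 6.41, 6.24, 6.55 and 4.32 in WT and 7.38, 8.17, 7.99 and 7.94 in KO. All WT arrays were below a signal of 100 and WT replicate 4 far below, so that H3f3a passed the limit through KO alone and the rise was at least 2.34-fold (1.99, SE 0.46, adjusted p = 0.0067, and 1.47 without WT replicate 4). The H3f3a call was lost with the methods' t-test after Benjamini-Hochberg adjustment (adjusted p = 0.061).

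Other probe sets of H3.3 moved the other way. The platform annotation lists 5 probe sets for 6 symbols each, H3f3a and H3f3b among them, and since they name several genes they are no members and no gene is named from them. All 5 were called lower in KO without overlap, by -0.34 to -1.12. The first of them read 14.99, 14.96, 14.95 and 14.91 in WT and 13.88, 13.89, 13.84 and 13.72 in KO (2.18-fold lower, adjusted p = 2.8e-05). After quantile normalization 2 of the 5 stayed called, and scaled to the hybridisation controls 1 was lower and 2 were higher. The single-symbol and several-symbol probe sets of H3.3 therefore gave opposite signs on the deposited scale, and the sources used here do not say which part of the transcripts each covers.

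**Figure D3:**
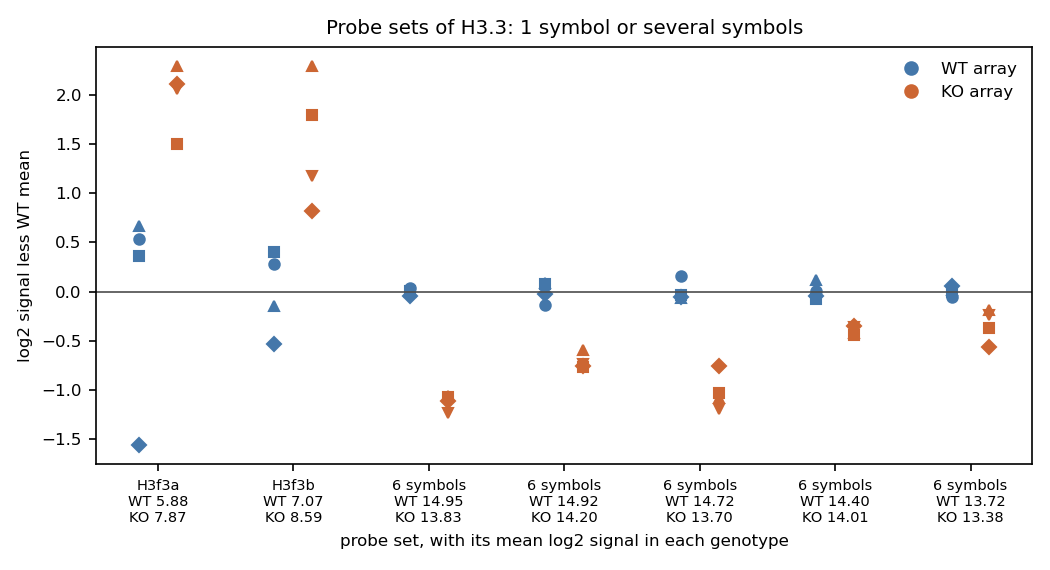
Log2 signal less the WT mean of the same probe set, for the probe sets of H3f3a and H3f3b and for the 5 probe sets listed for 6 symbols that include both, with 1 point per array (the shape marks the replicate as in the plot of genes by array). The single-symbol probe sets lie above 0 in all KO arrays and the other 5 below 0 on the deposited scale (scaled to the hybridisation controls 1 of the 5 was called lower and 2 higher).

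H2ax showed no detectable difference. It encodes H2A.X, which is phosphorylated around DNA breaks. H2ax read 12.85, 12.70, 12.80 and 12.73 in WT and 12.89, 12.59, 13.15 and 12.51 in KO, where 2 arrays lay above and 2 below the WT range. The difference was 0.01 (95% interval -0.33 to 0.35, adjusted p = 0.95), it was -0.25 after scaling to the 75th percentile (adjusted p = 0.19), and scaled to the hybridisation controls H2ax was called higher (0.82, adjusted p = 0.0032).

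Among the replication-coupled core histones, 2 of 4 tested H2A probe sets and 2 of 3 H2B probe sets were called lower, and 1 of 3 H3 probe sets was called higher. The median of these 10 was -0.29, and scaled to the hybridisation controls none was lower and 5 were higher. H2bc22, an H2B gene of the large histone cluster, read 8.77, 8.83, 8.98 and 8.90 in WT and 7.79, 7.65, 8.70 and 7.92 in KO. Each KO array was below WT, with replicate 4 close to it (1.81-fold lower, -0.85, SE 0.21, adjusted p = 0.0097). This only tested probe set of H2bc22 is marked for possible cross-hybridisation. Its call was lost with the methods' t-test after Benjamini-Hochberg adjustment (adjusted p = 0.072) and with the hybridisation controls (-0.04, adjusted p = 0.88).

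H2bc21, an H2B gene of a smaller cluster, read 10.40, 10.56, 10.24 and 10.46 in WT and 10.00, 9.60, 10.07 and 9.52 in KO. On this probe set, marked for possible cross-hybridisation, H2bc21 was 1.53-fold lower without overlap (-0.62, 95% interval -0.96 to -0.27, adjusted p = 0.0091). Its second, unmarked probe set was not called (-0.30, adjusted p = 0.13). H2aw, an H2A gene, read 9.94, 10.01, 9.98 and 9.65 in WT and 9.38, 9.42, 9.60 and 9.37 in KO, lower without overlap (-0.45, adjusted p = 0.011). Its probe sets disagreed. The brighter one is marked for possible cross-hybridisation, and the dimmer, unmarked one differed by 0.30 and was not called (adjusted p = 0.20). When scaled to the hybridisation controls, H2bc21 was at 0.19 and H2aw at 0.36, neither called. With the poly-A controls both calls were lost as well (adjusted p = 0.065 for H2bc21 and 0.064 for H2aw).

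H2ac19, another H2A gene, was not called on its brightest probe set, marked for cross-hybridisation, which read 10.17, 9.97, 10.09 and 10.29 in WT and 9.20, 10.30, 10.25 and 9.66 in KO (-0.28, adjusted p = 0.34). KO replicates 3 and 4 lay at the WT level while replicates 2 and 5 lay below. Its other probe set was called lower (-0.69, adjusted p = 0.043), with 8.54, 9.71, 9.67 and 9.33 in KO against 9.91 to 10.17 in WT. That call was lost with the poly-A controls (adjusted p = 0.062) and with the hybridisation controls (0.12, adjusted p = 0.65).

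The replication-coupled H3 genes had signals near the limit of 100. H3c4 read 6.24, 6.62, 6.05 and 6.28 in WT and 7.16, 7.55, 7.07 and 6.89 in KO. All WT arrays were below a signal of 100 and all KO arrays above, so that H3c4 passed the limit through KO alone, at least 1.44-fold higher (0.87, SE 0.17, adjusted p = 0.0032), and H3c4 stayed called higher under all 5 scalings. H3c7 (0.34, 95% interval -0.14 to 0.83) and H3c11 (0.30, 95% interval -0.56 to 1.15) were not called (adjusted p = 0.21 and 0.53). No H4 gene has a probe set of a single symbol.

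Probe sets that list several histone genes are not members and name no gene. Of 27 with a matching symbol, 22 were tested. On the deposited scale 13 were called lower and 1 higher, beside 17.7% and 34.4% over all probe sets. Scaled to the hybridisation controls 2 were lower and 10 higher of 23, beside 2.02% and 81.7% over all probe sets. An H2A probe set listed for 10 symbols read 15.12, 15.08, 15.26 and 15.07 in WT and 13.38, 14.11, 14.28 and 14.00 in KO, 2.28-fold lower (-1.19, SE 0.18, adjusted p = 0.00087). An H2B probe set listed for 3 symbols read 13.33, 13.30, 13.22 and 13.32 in WT and 11.91, 12.36, 12.42 and 12.00 in KO, 2.17-fold lower (-1.12, SE 0.14, adjusted p = 0.00024). In both the groups were far apart against the spread of WT.

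An H3 probe set listed for 2 symbols read 9.33, 8.99, 8.44 and 8.90 in WT and 5.20, 6.95, 3.91 and 6.59 in KO, at least 4.83-fold lower (-3.25, SE 0.60, adjusted p = 0.0022). The 3 tested H4 probe sets, listed for 13 symbols each, were not called (-0.23, -0.28 and -0.54). On 1 of these KO replicate 3 lay above the WT range at 12.55 and KO replicate 2 below it at 11.29, against 12.05 to 12.31 in WT.

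Class medians were also taken array by array. On the deposited scale the median over genes, as the deviation from the WT mean, was -0.42, -0.40, -0.37 and -0.43 in KO replicates 2 to 5 for the 3 linker genes. For the 5 variants it was -0.49, -0.32, -0.26 and -0.42, and for the 7 replication-coupled core genes -0.41, 0.16, 0.02 and -0.52. A median of 3 genes is the value of the middle gene, and the linker gene H1f4 had an SD of 1.2 over the KO arrays, so the closeness of the 4 linker values does not describe each linker gene. No difference in spread between classes was tested. Of these 3 classes, KO replicates 3 and 4 lay at or above the WT level in the replication-coupled core genes and in no other. As medians of the fitted differences per gene, the classes gave -0.43 (linker), -0.44 (variants) and -0.28 (replication-coupled core), which are descriptions of 3, 5 and 7 genes. The replication-coupled value was -0.06 without KO replicate 2, -0.44 without KO replicate 3 and -0.46 without KO replicate 4, and between -0.33 and -0.22 without any other single array. Lettered probe sets, with a letter before the ending _at of their name, made up 9 of the 25. The letters s and x mark possible cross-hybridisation, and the letter a does not. Of these 9, 8 were called lower, and of the 16 others 6 were called lower and 3 higher. Fitted without lettered probe sets, 15.1% of 16871 probe sets of the array were called lower and 37.4% higher. The share over all lettered probe sets was not taken. Without the lettered probe sets the medians over genes were -0.87 (linker), 0.54 (variants) and 0.30 (replication-coupled core). The variant value then covers 4 genes, since H2az1 drops out, and over probe sets the variant median was -0.50 with 4 called lower and 2 higher. The replication-coupled core median over probe sets was 0.30 as well, with 1 called lower and 1 higher of 6.

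Scaling to the hybridisation controls raised all differences alike, by about the fall of these controls. The median over all tested probe sets was 0.17 as deposited, -0.03 after quantile normalization, -0.12 after scaling to the 75th percentile, 0.23 with the poly-A controls and 1.01 with the hybridisation controls. Less that median, the tested histone probe sets lay at -0.62, -0.39, -0.61, -0.63 and -0.65 in the same order. The number tested was 25, 24, 24, 25 and 24, so these are not all medians of the same probe sets. Lower calls numbered 14, 13, 16, 9 and 1, and higher calls 3, 3, 3, 3 and 11. Over all probe sets the shares called lower were 17.7%, 24%, 31.7%, 11.1% and 2.02% in the same order. The shares called higher were 34.4%, 23.3%, 21.8%, 34% and 81.7%. The hybridisation controls, bacterial RNA added to each hybridisation mix, were lower in KO by -0.81 on the log2 scale, and the poly-A controls, added before labelling, by -0.0555. H3f3a, H3f3b and H3c4 were called higher under all 5, but on the deposited scale H3f3a and H3c4 passed the limit through KO alone.

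**Figure D4:**
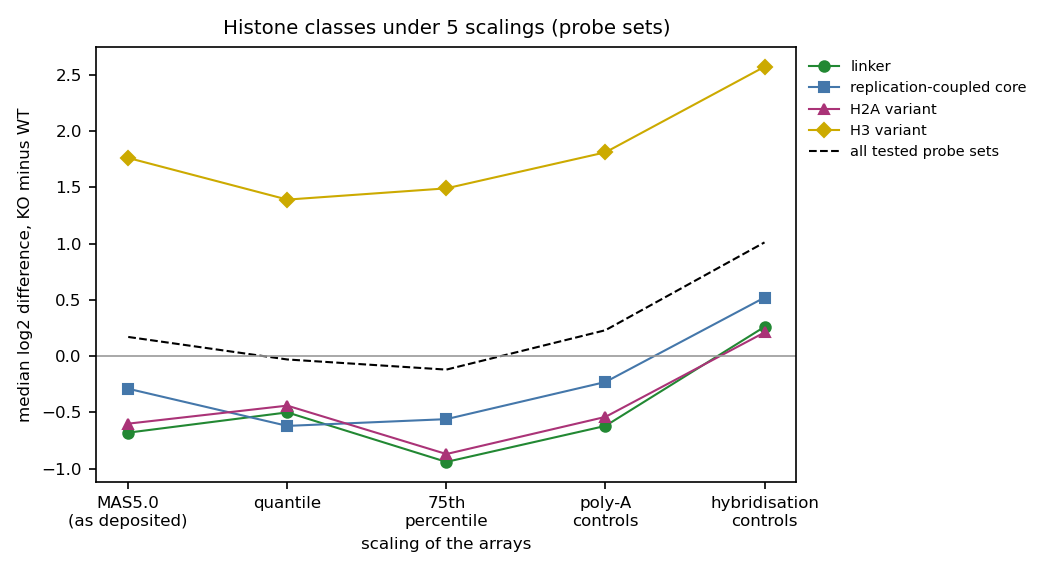
Median log2 difference, KO minus WT, over the tested probe sets of each histone class under 5 scalings of the arrays, with H2A and H3 variants shown apart and the dashed line for all tested probe sets. Linker, replication-coupled core and H2A variant medians lie below 0 in the first 4 scalings and above 0 with the hybridisation controls, where all tested probe sets lie at 1.01, and each of these medians stays below the dashed line throughout.

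Genes of the histone supply were followed in 4 lists. Of 25 genes that transcribe histone genes or process the ends of their mRNAs, 22 were tested, 8 were called lower and 2 higher on the deposited scale, with a median of -0.21 (with the hybridisation controls 1 and 15), beside 21.0% lower and 25.6% higher over all genes. Slbp, which encodes the protein that binds the histone stem-loop, read 14.02, 13.96, 14.00 and 14.02 in WT and 12.90, 12.48, 12.68 and 12.55 in KO. It was 2.55-fold lower without overlap (-1.35, SE 0.11, adjusted p = 3.5e-05). Eri1, an exonuclease that trims the stem-loop, was 1.67-fold lower (-0.74, adjusted p = 0.0029), and Snrpb, a core protein of the small nuclear ribonucleoproteins, was 1.58-fold lower (-0.66, adjusted p = 0.0028). Sympk, the scaffold of the cleavage complex, was 1.98-fold higher (0.99, adjusted p = 0.00010), and Upf1, a helicase of histone mRNA decay, was higher with overlap (0.51, adjusted p = 0.043).

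Histone chaperones carry histones to DNA. Of 31 listed genes 26 were tested, 11 were called lower and 3 higher on the deposited scale (21.0% and 25.6% over all genes), with a median of -0.32 (none lower and 14 higher with the hybridisation controls). Nasp, a chaperone of H3 and H4 and of H1, read 12.62, 12.48, 12.55 and 12.49 in WT and 11.56, 11.08, 11.55 and 10.95 in KO (2.38-fold lower, -1.25, adjusted p = 0.00029). Asf1b, which hands H3 and H4 on for assembly, fell by 1.12 on the log2 scale (adjusted p = 0.00026). Hat1, the acetyltransferase of new H4, fell by 0.79 (adjusted p = 0.00062). The H3.3 chaperone gene Daxx rose (0.59, adjusted p = 0.0088), as did Ubn2 of the HIRA complex for H3.3 (0.67, adjusted p = 0.0013) and Ipo4, an importin for H3 and H4 (0.43, adjusted p = 0.013).

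The S phase list holds genes of DNA replication. Of 32 genes 31 were tested, 27 were called lower and none higher on the deposited scale (21.0% and 25.6% over all genes), with a median of -0.84 (2 lower and 4 higher with the hybridisation controls, median -0.03). Rrm2, a subunit of ribonucleotide reductase, read 14.90, 14.98, 14.97 and 14.89 in WT and 13.36, 12.58, 13.12 and 12.75 in KO (3.95-fold lower, -1.98, SE 0.17, adjusted p = 3.9e-05). Ccne2, an S phase cyclin, was 2.86-fold lower (-1.52, adjusted p = 5.2e-05), and Uhrf1, which keeps DNA methylation at replication, was 2.36-fold lower (-1.24, adjusted p = 0.00053). The number of cells in S phase was not measured.

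Of 22 histone-modifying enzymes and related genes of erythroblast condensation, 17 were tested, 4 were called lower and 5 higher on the deposited scale, with a median of -0.04 (1 and 13 with the hybridisation controls). These counts are near the shares over all genes (21.0% lower and 25.6% higher). Xpo7, an exportin linked to the release of histones from the condensing nucleus, read 13.81, 13.97, 13.92 and 13.95 in WT and 11.42, 11.22, 11.55 and 11.59 in KO (5.54-fold lower, -2.47, SE 0.11, adjusted p = 3.0e-06). Hdac2, a histone deacetylase, was 1.65-fold lower (-0.72, adjusted p = 0.00076), and Ezh2, the H3 lysine methyltransferase of Polycomb, 1.5-fold lower (-0.58, adjusted p = 0.0029). Hdac5, a class II deacetylase, rose 3.35-fold (1.75, adjusted p = 0.00043). The H4 lysine methyltransferases Kmt5c and Kmt5b rose as well (0.75 and 0.72, adjusted p = 0.00067 and 0.0013).

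**Figure D5:**
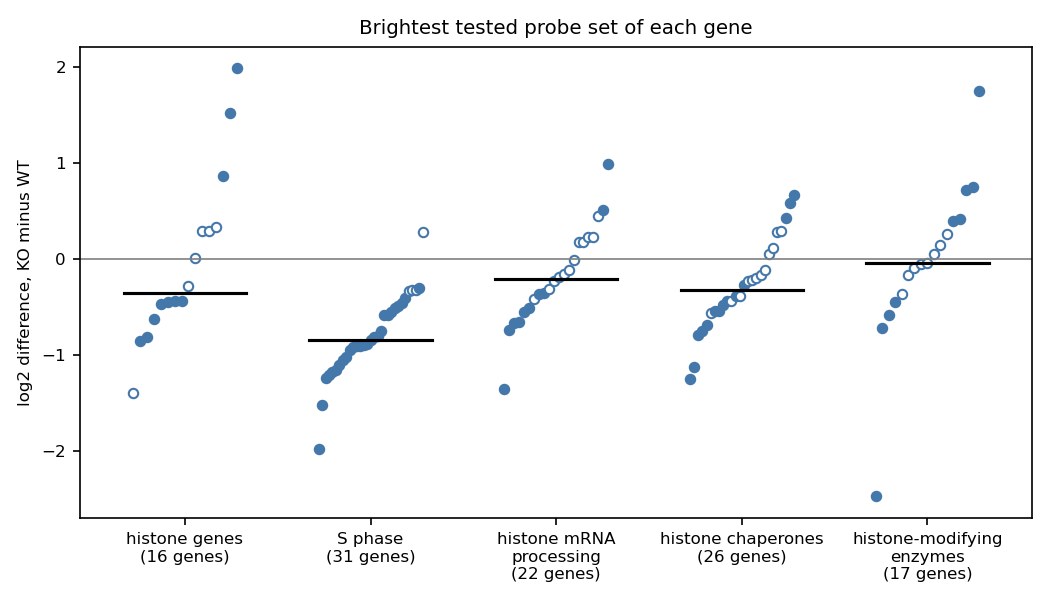
Log2 difference, KO minus WT, on the brightest tested probe set of each gene, for the 16 histone genes and the 4 lists, with filled points called at an adjusted p under 0.05 and a bar at the median. Among these 5 groups the S phase list has the lowest median (-0.84) and the histone-modifying enzymes the highest (-0.04) on the deposited scale, and no difference between groups was tested.

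Cell type markers moved with genotype as well. On the deposited scale, all 5 tested erythroid markers of 6 listed were called lower (1 lower and 1 higher with the hybridisation controls), with a summed signal of 57000 to 64420 in WT and 26450 to 27680 in KO. All 4 hepatocyte markers were lower (162100 to 185600 against 98640 to 129100), and none was called after quantile normalization or with the hybridisation controls. None of 3 tested macrophage markers was called (6599 to 8284 against 4138 to 8712), and 1 B cell marker of 3 was tested and was lower (86.8 to 227.8 against 7.65 to 116.2). This marker, Igll1, passed the limit through WT alone (mean signal 161 in WT and 29.7 in KO), and its groups overlapped. Of 3 markers each, 2 of endothelium (785.6 to 908.7 against 1341 to 2122), 2 of megakaryocytes (12120 to 14330 against 16160 to 20180) and 2 of granulocytes (11000 to 12830 against 19370 to 34990) were higher. Most of the megakaryocyte sum came from Pf4 (WT mean signal 11100), which was not called (0.30, adjusted p = 0.059). Over all genes 21.0% were called lower and 25.6% higher on the deposited scale. The part of cell composition in the histone values was not tested.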

How the data were processed

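Fetal liver RNA of 4 WT and 4 KO embryos, grouped by the genotype in the labels, was isolated with Trizol and hybridised to Affymetrix mouse arrays by the authors. The deposited values are MAS5.0 intensities, 1 per probe set and array, on a linear scale with a common trimmed mean of 500. R 3.0.2 and MAS5 are named in the submitters' processing notes. The methods name the smaller A version of the array, whereas the deposited intensities cover 45101 probe sets. Genes were named from the platform annotation, and probe sets with several symbols (932) or none (9160) name no gene. Precision is limited by the number of arrays.

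The log2 of each intensity was taken without a pseudocount. Tested were probe sets whose mean in either genotype exceeded a signal of 100, control probe sets (64) left out, with limma 3.58.1 in R 4.3.3 (lmFit and eBayes, genotype only, two-sided) and Benjamini-Hochberg adjustment over all of them at 0.05. Each gene stands for its brightest probe set, by the mean of log2 signals in all 8 arrays, and a group mean below 100 was set to 100 for the fold, which is then written as a bound. A single value was compared by the exact permutation test over 70 assignments, whose smallest p is 0.029. Nothing in the sources says whether arrays share a litter, so p-values measure the spread between these embryos. The fit was first tested on simulated data. Alternatives were other scalings, filters, a pseudocount of 16, the methods' t-test and a block for the replicate number. Further ones were omission of each array in turn, and leaving out lettered probe sets. The poly-A and hybridisation scalings each used 8 control probe sets of the 3-prime end with a mean above a signal of 100. This leaves out the dim Trpn control. Python 3.11.15 with pandas 2.3.3, numpy 2.4.6, scipy 1.17.1 and matplotlib 3.10.9 did the rest.

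The members, classes and lists were chosen with earlier results of these data known. Named were Klf1, every tested variant and linker gene, H2ax, up to 4 called rises and 4 called falls per replication-coupled family, and the 3 largest called rises and falls of each list. The gene names of the classes were updated to current symbols once the annotation was read. H2ac19, H3c7 and H3c11, further probe sets of named genes, and the probe sets with several symbols were chosen after their values were seen.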

Additional observations from a re-analysis of the deposited data

Results flagged for a closer look

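H3f3a in the WT arrays held 1 value far from the others, where replicate 4 read 4.32 against 6.24 to 6.55 on the log2 scale. The gap passed Dixon's 95% critical value for 4 samples. Of 34 groups of 4 arrays that were checked, 1 was marked in this way, where chance marks about 1 in 20. All 4 WT values lay below a signal of 100, and without this array the difference was 1.47 and H3f3a was still called higher.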

How the results depend on the processing

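Over the 16 named histone genes, 282 of 339 values under the alternatives kept direction and call, 26 lost the call, 13 gained it, 15 changed sign and 3 moved beyond the spread; Klf1 kept both throughout. Lower calls (14) numbered 1 with the hybridisation controls, 9 with the poly-A controls and 9 with the methods' t-test after Benjamini-Hochberg. They numbered 5 with the replicate block, 6 without lettered probe sets, and 11 to 14 when 1 array was left out. Higher calls (3) numbered 11 with the hybridisation controls and 3 to 4 when 1 array was left out. The linker median (-0.43) was -0.68 over the median of a gene's probe sets, -0.16 after quantile normalization and -0.70 at the 75th percentile. It was 0.74 with the hybridisation and -0.37 with the poly-A controls, -0.34 with no filter, and -0.07 with a filter at 200 or on the mean of all arrays. The values 0.74 and -0.07 cover 2 genes, since H1f4 drops out, and -0.34 covers 6, so these are not medians of the same genes. The linker median was -0.87 without lettered probe sets, and -0.46 to -0.41 when 1 array was left out. The variant median (-0.44) was -0.32 after quantile normalization, -0.71 at the 75th percentile and 0.37 with the hybridisation controls. It was -0.30 with the replicate block, 0.54 without lettered probe sets and -0.49 to -0.34 when 1 array was left out. The replication-coupled core median (-0.28) was -0.08 over the median of a gene's probe sets, -0.50 after quantile normalization and -0.14 with no filter. It was -0.54 with a filter at 200, -0.63 at the 75th percentile and 0.53 with the hybridisation controls. It covers 6 genes after quantile normalization and at the 75th percentile, 8 with no filter and 4 with the filter at 200. It was 0.30 without lettered probe sets and -0.46 to -0.06 when 1 array was left out.

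Signs turned after quantile normalization for H1f10 (-0.11) and H3c7 (-0.07), at the 75th percentile for H2ax (-0.25), and without lettered probe sets for H2aw (0.30). With the hybridisation controls they turned for H1f2 (0.38), H2ac19 (0.53), H2aw (0.36), H2bc21 (0.19), H2az1 (0.00), H2az2 (0.34) and H2aj (0.37). H2ax lay between -0.11 and 0.10 when 1 array was left out. The causes were not tested.

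Replicate numbers 2, 3 and 4 occur in both groups, but the deviations of same-numbered arrays correlated at -0.000836, -0.0821 and -0.0272 over 23379 probe sets, so they share only a number. The replicate block, fitted over the 3 shared numbers and the 2 unshared ones, left 3 higher and 5 lower calls. Signals near 100 limit H1f4, H3c4, H3c7, H3c11 and H3f3a, where folds are bounds or were not called. They also limit H3f3b, whose WT signals were 93.23 to 177.5.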
